A study of Mus musculus with 28 samples.

Results

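Total mRNA of cultured mouse cortical neurons that carried a human TDP-43 transgene was compared with that of neurons without it. The 2 groups were chosen by library type, cell type and genotype in the sample labels, which gave 5 of the 28 libraries of the series. The WT group held 2 cultures from wild type, non-transgenic C57BL/6J mice (replicates 2 and 3). The study names its control animals as littermates of the transgenic ones, which it describes as hemizygous. The hTDP-43 group held 3 cultures from C57BL/6J mice with the transgene Prp-hTARDBP WT, in which the prion protein promoter, active in neurons and in other cells of the brain, drives the human gene without a disease mutation (replicates 1, 2 and 3). Cortices were taken at embryonic day 16, cytosine arabinoside (Ara-C, which kills dividing cells) was added to all cultures on day 4 in vitro, and RNA was harvested on day 14. The endogenous mouse Tardbp gene was present in both groups, so the transgene came on top of it. Total RNA was selected by its poly(A) tail, fragmented and cut from a gel at the size of ribosome footprints, so each library reads short pieces of mRNA.

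TDP-43 is an RNA-binding protein of the hnRNP family that sits mostly in the nucleus, binds UG-rich stretches of pre-mRNA and keeps cryptic exons and long introns correctly spliced. It also holds its own level down by acting on the 3' end of its own transcript, so that extra TDP-43 can lower the mRNA of the endogenous gene. In amyotrophic lateral sclerosis and frontotemporal dementia the protein leaves the nucleus and aggregates in the cytoplasm of neurons. The comparison asks what steady-state mRNA differed when neurons made additional wild-type protein.

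Reads assigned to genes numbered 3609519 and 3206139 in WT (replicates 2 and 3) and 6969578, 986092 and 600385 in hTDP-43 (replicates 1, 2 and 3), so that 3 reads stand for 0.430 to 5.00 CPM, the unit of reads scaled to library size in which all levels are given after TMM scaling. Values are given in the order WT 2 and 3, then hTDP-43 1, 2 and 3. Both libraries of replicate 3 stood apart from the other 3 libraries. Lars2, a nuclear gene for the mitochondrial leucyl-tRNA synthetase, took 18.8% and 14.1% of their reads, against 3.09%, 6.84% and 4.16% in WT 2 and hTDP-43 1 and 2. Protein-coding genes took 86.9% and 89.3% there and 94.6% to 96.9% in the other 3. The A315T total mRNA library of the same number and date, from neurons with a disease mutant of hTDP-43, is outside this comparison. It had 3.24% of its reads on Lars2 and 96.2% on protein-coding genes, so not every library of that number had this composition. Replicate 1 had no WT library, and the cause of the composition of WT 3 and hTDP-43 3 was not tested.

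Markers of cortical neurons were present in every library. Slc17a7, the vesicular glutamate transporter of cortical excitatory neurons, had 733 and 386 CPM in WT and 697, 922 and 809 CPM in hTDP-43. Gad1, the GABA-synthesizing enzyme of interneurons, had 306 and 266 CPM in WT and 413, 230.3 and 283 CPM in hTDP-43. Summed over 14 glutamatergic markers the level was 2463 to 2700.3 CPM in WT and 2659 to 3218 in hTDP-43, and over 15 GABAergic symbols (16 genes, as Dlx6os1 is the symbol of a pair of them) 1874 to 2147 and 1832 to 2549 CPM. The 16 astrocyte markers summed to 584 to 771 CPM in WT and 734 to 963 in hTDP-43, and Slc1a2, the astroglial glutamate transporter, had 182 and 301 CPM in WT and 261, 187 and 444 CPM in hTDP-43. Gfap, the filament of mature astrocytes, had 1.18 and 5.80 CPM in WT and 1.75, 0.910 and 9.61 CPM in hTDP-43, with replicate 3 highest in both genotypes. The 15 oligodendrocyte markers summed to 60.0 to 84.4 CPM in WT and 83.1 to 127 in hTDP-43, with Opalin at 0 in all 5 libraries. The 14 microglial markers summed to at most 23.1 CPM and the 12 endothelial and mural markers to at most 19.3 CPM in any library, and Cldn5 had 0 reads in all 5. The 10 markers of radial glia and progenitors summed to 90.1 to 107 CPM in WT and 106 to 122 in hTDP-43. In such bulk samples fewer cells of a type and less RNA per cell cannot be told apart.

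The mouse Tardbp gene (ENSMUSG00000041459, chromosome 4 from 148612382 to 148627019 on GRCm38) did not separate the groups. It had 54.6 and 94.8 CPM in WT and 74.2, 55.5 and 50.0 CPM in hTDP-43 (231 and 245 reads in WT and 551, 61 and 26 in hTDP-43). The WT values spanned those of hTDP-43, apart from replicate 3 of hTDP-43, which was lowest of all. The log2 fold change, hTDP-43 against WT, was -0.29 ± 0.34 (SE, 2 against 3 libraries, adjusted p = 1 by edgeR's quasi-likelihood test, unadjusted p = 0.412), and when libraries were blocked by replicate number it was -0.38 ± 0.24. Within replicate 2 the difference was 0.02 and within replicate 3 -0.91 on the log2 scale, and without WT replicate 3 the fitted value turned to 0.17. The counts are on the mouse gene, where reads of the human transgene can align in part, so they measure neither transcript alone and do not check the transgene.

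Prnp (ENSMUSG00000079037, chromosome 2 from 131909928 to 131938429 on GRCm38), the gene whose promoter drives the transgene, had 323 and 149 CPM in WT and 306, 329.6 and 259.5 CPM in hTDP-43. Its low value was WT replicate 3, and the other 4 libraries lay between 259.5 and 329.6 CPM. The log2 fold change was 0.34 ± 0.36 (edgeR adjusted p = 1, unadjusted p = 0.375), and -0.11 without WT replicate 3. Whether parts of the transgene vector were counted on Prnp was not tested.

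No gene passed the threshold when the 5 libraries were compared without regard to the replicate number. Of 11828 genes tested by edgeR's quasi-likelihood test, 0 (0%) had an adjusted p under 0.05. At an unadjusted p under 0.05 there were 16 genes higher in hTDP-43 (0.135% of genes tested) and 28 lower (0.237%). DESeq2 also called 0 genes (11 higher and 40 lower at an unadjusted p under 0.05), as did limma-voom with sample weights (10 and 49). With replicates 2 and 3 of both groups only, edgeR called 0 of 10928 genes, with 4 higher and 16 lower at an unadjusted p under 0.05. The median standard error of a log2 fold change was 0.39, and the absolute log2 fold change had a median of 0.20 and a 95th percentile of 0.88. The number of genes at a low p depended on the WT library used. Without WT replicate 2, 676 genes were higher and 1050 lower at an unadjusted p under 0.05 (smallest adjusted p = 0.0514), and without WT replicate 3 the numbers were 110 and 30 (smallest adjusted p = 0.431). In both of these fits the remaining WT library was assumed to vary like the hTDP-43 libraries.

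Among the 4 WT and hTDP-43 libraries of replicates 2 and 3, the number separated the libraries more than the genotype did. For 3483 genes with at least 30 reads in each library of replicates 2 and 3, the difference of hTDP-43 from WT was taken within each replicate as log2 CPM with a prior count of 2. Across these genes it had an SD of 0.27 in replicate 2 and 0.38 in replicate 3, and the values of the 2 replicates had a Pearson correlation of 0.09. The difference of replicate 3 from replicate 2 had an SD of 0.81 in WT and 0.61 in hTDP-43, with a correlation of 0.84 between the genotypes. These correlations are across genes of 4 libraries, which are not independent, and describe the libraries only. Of all genes tested, 216 were more than 4-fold higher and 20 more than 4-fold lower in replicate 3 in both genotypes, while 0 were more than 4-fold higher and 4 more than 4-fold lower with the transgene in both replicates. In the plot of differences within replicates, genotype differences form a cloud with no slope and replicate differences a diagonal one.

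**Figure D1:**
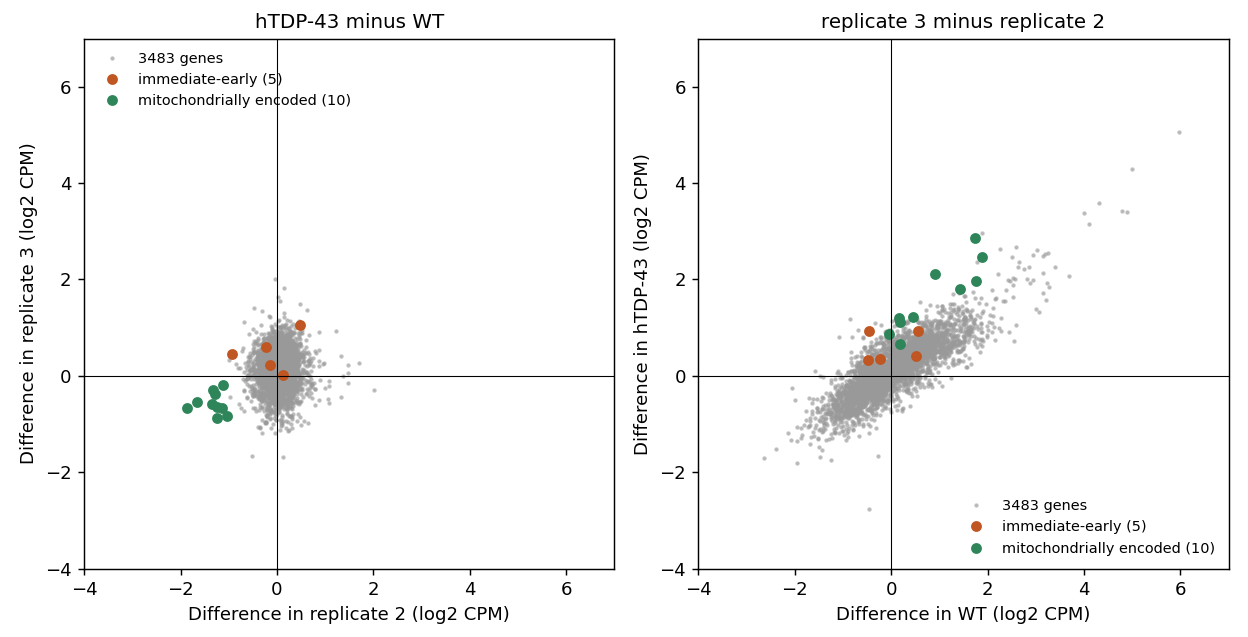
Log2 CPM differences of 3483 genes with at least 30 reads in each of 4 libraries. Left: hTDP-43 minus WT in replicate 2 (x axis) and in replicate 3 (y axis). Right: replicate 3 minus replicate 2 in WT (x axis) and in hTDP-43 (y axis). Grey points are genes, orange points the 5 immediate-early genes and green points the 10 mitochondrially encoded genes among them. The 10 green points lie below 0 on both axes of the left panel.

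With the replicate number as a block, which compares hTDP-43 with WT inside replicates 2 and 3, 20 of 11828 genes passed the threshold, 15 of them lower (0.127%) and 5 higher (0.0423%) in hTDP-43. Among the 15 lower genes, 8 are encoded by the mitochondrial genome. Replicate 1 of hTDP-43 has no WT library of its number and does not bear on the genotype in this fit. With replicates 2 and 3 only and the block, 26 of 10928 genes passed (0.238%), which held all 20 genes of the fit on 5 libraries. DESeq2 with the same block called 0 genes (38 higher and 50 lower at an unadjusted p under 0.05). The blocked edgeR fit leaves each gene 1 residual degree of freedom and took the spread of every gene from the trend over all genes, at a common biological coefficient of variation of 0.14 against 0.35 without the block. For A315T against WT, the same block did not lower this coefficient (0.32 with it and 0.29 without). Without the block, 1 of the 20 genes had an unadjusted p under 0.05. It was Icam5, which was also the single one of them whose groups did not overlap.

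Mitochondrial DNA encodes subunits of the respiratory chain and of ATP synthase, together with the rRNAs and tRNAs that translate them. Within replicates 2 and 3 most of these transcripts had lower levels in hTDP-43 than in the WT library of the same number. Of 28 mitochondrially encoded genes tested of 37 listed, 22 were lower in both replicates and 0 higher in both, where 26.2% of all genes tested were lower in both and 27.2% higher in both. The 8 genes past the threshold with the block were mt-Nd2, mt-Nd4, mt-Nd5 and mt-Nd6 (subunits of complex I), mt-Atp8 (a subunit of ATP synthase), mt-Rnr1 and mt-Rnr2 (the 12S and 16S rRNAs) and mt-Tc (the cysteine tRNA).

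Single genes show how the libraries were ordered. The complex I subunit mt-Nd2 had 533 and 732 CPM in WT and 593, 210.3 and 490.2 CPM in hTDP-43. Its hTDP-43 replicate 2 was the lowest library, and hTDP-43 replicates 1 and 3 lay on either side of WT replicate 2, so the groups overlapped. The blocked log2 fold change was -0.96 ± 0.21 (edgeR adjusted p = 0.00532), and without the block it was -0.55 ± 0.43. The ATP synthase subunit mt-Atp8 had 157 and 296 CPM in WT and 247, 42.8 and 186 CPM in hTDP-43. Its difference was -1.86 on the log2 scale in replicate 2 and -0.67 in replicate 3 (blocked -1.22 ± 0.21, edgeR adjusted p = 3.93e-05). The complex I subunit mt-Nd6, the one mRNA read from the light strand, had 291 and 779.9 CPM in WT and 409, 122 and 427 CPM in hTDP-43 (blocked -1.05 ± 0.21, edgeR adjusted p = 7.17e-04). Reads were counted without regard to strand, so mt-Nd6 cannot be told from transcripts of the opposite strand.

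The rRNAs and the tRNA were ordered by replicate number more than by genotype. The small subunit rRNA mt-Rnr1 had 102 and 345 CPM in WT and 98.6, 31.9 and 236 CPM in hTDP-43, and the large subunit rRNA mt-Rnr2 had 196 and 721 CPM in WT and 176, 82.8 and 461 CPM in hTDP-43. Both were higher in the 2 libraries of replicate 3 than in the other 3 libraries, and within each number the hTDP-43 library was below the WT library. The cysteine tRNA mt-Tc had 7.33 and 261 CPM in WT and 6.33, 1.82 and 90.4 CPM in hTDP-43, and its 2 libraries of replicate 3 were far above the other 3. Reads that aligned to annotated non-coding RNAs had been removed before counting, so rRNA and tRNA values are what that step left.

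Across the 5 libraries without the block the groups overlapped for every mitochondrially encoded gene tested. Their median log2 fold change was -0.93 without the block, -0.98 with it and 0.14 without WT replicate 3, beside 0.00, 0.00 and 0.03 for all genes tested. For the 11 protein-coding members the same medians were -0.25, -0.93 and -0.15, and for the 15 tRNAs -2.37, -1.20 and 1.25. None of the 28 had hTDP-43 values all below or all above both WT values (0 lower and 0 higher). Mitochondrially encoded genes took 0.838% and 0.947% of reads in WT and 1.12%, 0.339% and 0.691% in hTDP-43. Replicate 1 of hTDP-43 thus had the highest share and replicate 2 the lowest, with both WT libraries between them. The 90 nuclear genes of the respiratory chain had a median of -0.01 without and -0.13 with the block. Of these 90, 38 were lower in both replicates, where 26.2% of all genes tested were lower in both. In the footprint libraries of the same groups and numbers, hTDP-43 replicates 2 and 3 had 192008 and 166064 assigned reads. There, 11 mitochondrially encoded genes were tested and had a median of 0.03, and mt-Nd2 and mt-Atp8 had log2 fold changes of -0.06 and -0.54. These footprint values are from the fit without the block, which includes hTDP-43 replicate 1. They are not the same measure as the differences within replicates, and blocked footprint values are not given here.

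**Figure D2:**
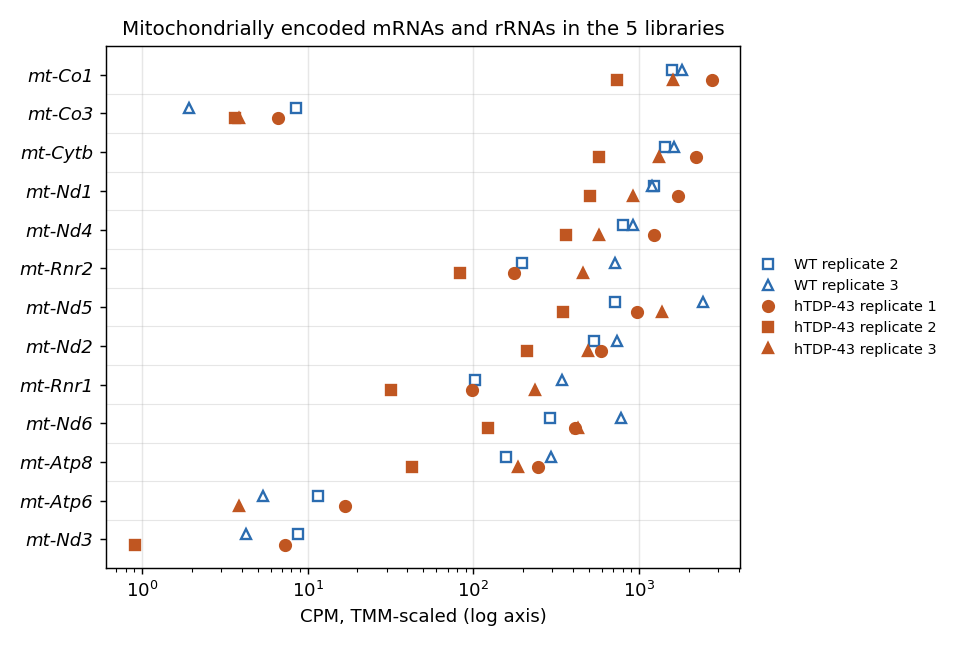
CPM (log axis, TMM-scaled) of 13 mitochondrially encoded mRNAs and rRNAs tested, in each of the 5 libraries. Open blue symbols are WT and filled orange symbols hTDP-43, with a circle, square or triangle for replicate 1, 2 or 3. Libraries with 0 reads are not drawn (mt-Atp6 in hTDP-43 replicate 2 and mt-Nd3 in hTDP-43 replicate 3). The orange square lies left of the blue square in every row in which it is drawn, and the orange circle, hTDP-43 replicate 1, lies left of both blue symbols for mt-Rnr1 and mt-Rnr2 and among or right of them in the other rows.

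The other 7 genes that were lower with the block were nuclear genes of mixed roles, and several had few reads. Dlk1, an imprinted ligand of the Notch family, had 242 and 16.6 CPM in WT and 4.31, 66.5 and 5.77 CPM in hTDP-43 (1023 and 43 reads in WT and 32, 73 and 3 in hTDP-43). It was lower in hTDP-43 in both replicates (blocked -1.83 ± 0.28, edgeR adjusted p = 7.84e-07), and its lowest library was replicate 1 of hTDP-43. WT replicate 2 alone was far above the rest, and without it the fitted value was 0.53. Fut9, a fucosyltransferase that makes the Lewis X epitope of neural cells, had 44.2 and 200.01 CPM in WT and 88.1, 20.9 and 57.7 CPM in hTDP-43 (blocked -1.48 ± 0.26, edgeR adjusted p = 2.86e-05). WT replicate 3 was its highest library and hTDP-43 replicate 2 its lowest.

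Cdr1 had 20.1 and 194 CPM in WT and 33.3, 12.7 and 51.9 CPM in hTDP-43, with WT replicate 3 highest. Its blocked value was -1.47 ± 0.29 (edgeR adjusted p = 5.03e-04), and since strand was not used it cannot be told from RNA of the opposite strand. Ncbp3, an alternative cap-binding protein, had 96.5 and 1029 CPM in WT and 45.5, 67.4 and 323 CPM in hTDP-43 (blocked -1.16 ± 0.22). Smc5, a component of a chromosome maintenance complex, had 17.0 and 37.5 CPM in WT and 20.3, 8.19 and 0 CPM in hTDP-43, and its blocked value (-2.11 ± 0.48, edgeR adjusted p = 0.00951) rests in part on 0 reads in hTDP-43 replicate 3 against 97 in WT replicate 3. Hes7, a repressor of the segmentation clock, had 4.02 and 170.2 CPM in WT and 10.8, 4.55 and 55.8 CPM in hTDP-43, and Car9, a carbonic anhydrase, had 2.60 and 378 CPM in WT and 21.5, 4.55 and 131 CPM in hTDP-43. Both of these were lower in hTDP-43 in replicate 3 (-1.60 and -1.53 on the log2 scale) and not in replicate 2 (0.16 and 0.68), at a few CPM in the libraries of replicate 2.

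Of the 5 genes that were higher with the block, 1 had groups that did not overlap. Icam5, or telencephalin, an adhesion molecule of the dendrites of forebrain neurons, had 187 and 85.1 CPM in WT and 238, 287 and 219 CPM in hTDP-43. All 3 hTDP-43 libraries were above both WT libraries. Its log2 fold change was 0.95 ± 0.20 with the block (edgeR adjusted p = 0.00229) and 0.87 ± 0.37 without it (unadjusted p = 0.0483, adjusted p = 1). Icam5 (ENSMUSG00000032174, chromosome 9 from 21032038 to 21039036 on GRCm38) is protein-coding, and its footprint value without the block was 0.49.

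Jmjd6, an oxygenase that acts on splicing factors, had 89.6 and 153 CPM in WT and 61.8, 227 and 204 CPM in hTDP-43, and was higher in both replicates (1.33 and 0.41) but lowest of all 5 libraries in hTDP-43 replicate 1. Gm24245, annotated as a miRNA gene, had 36.2 and 172 CPM in WT and 67.6, 101 and 202 CPM in hTDP-43. Wtap, a subunit of the complex that methylates adenosine in mRNA, had 188 and 137 CPM in WT and 169, 765 and 112 CPM in hTDP-43, so that 1 library, hTDP-43 replicate 2, stood out, and in replicate 3 the difference was -0.29. Ankrd60 had 270.3 and 0 CPM in WT and 321, 915 and 0 CPM in hTDP-43, with 0 reads in both libraries of replicate 3. Its call, like that of Wtap, rests on replicate 2. The plot of the differences of these 20 genes within replicates shows 13 of the 15 lower genes below 0 in both replicates and 3 of the 5 higher genes above 0 in both.

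**Figure D3:**
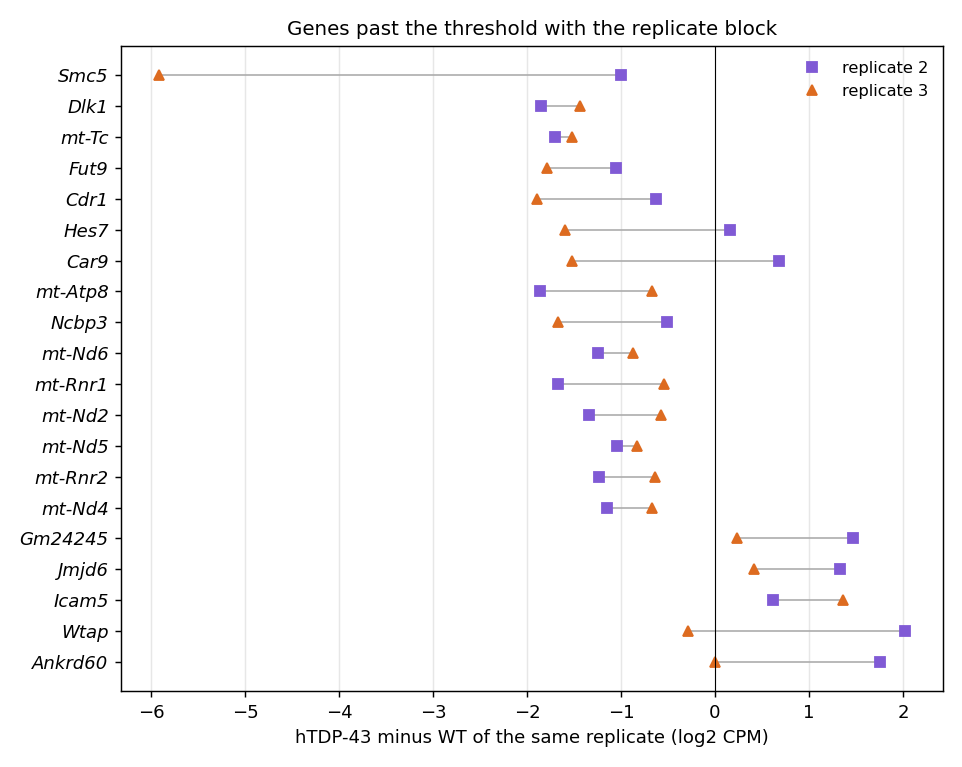
Difference of hTDP-43 from WT within replicate 2 (squares) and within replicate 3 (triangles), in log2 CPM with a prior count of 2, for the 20 genes past the threshold with the replicate block, ordered by the blocked log2 fold change. Grey lines join the values of a gene. For 13 of the 15 lower genes both symbols lie below 0, and Smc5 in replicate 3 rests on a library with 0 reads.

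Immediate-early genes, which neurons transcribe within minutes of synaptic activity and calcium entry, had higher mean levels in hTDP-43 neurons for most members, and none passed the threshold. Of 18 tested of 19 listed, 16 had a fitted log2 fold change above 0 (49.8% of all genes tested did, and 50.2% were below 0) and 0 had an adjusted p under 0.05. Their median log2 fold change was 0.78, beside 0.00 over all genes tested. At an unadjusted p under 0.05, 5 were higher (Fosb, Fos, Egr2, Egr3 and Arc) and 0 lower, where 0.135% of all genes tested were higher and 0.237% lower. Both shares lie far below the nominal rate of that threshold, so in this fit the unadjusted p serves only to order genes. Groups did not overlap for 5 of them, all higher in hTDP-43 (Fos, Egr2, Egr3, Arc and Dusp1), where 4.77% of all genes tested were higher and 4.51% lower without overlap. The highest of the 5 libraries was hTDP-43 replicate 1, which has no WT library of its number, for 14 of the 18 genes. With the block the median was 0.24, with replicates 2 and 3 only 0.25, and without WT replicate 3 0.63. Within replicate 2, hTDP-43 was below WT for Egr1, Npas4, Nptx2, Bdnf, Nr4a1, Nr4a2 and Jun. It was above WT there for Fos, Fosb, Egr2, Egr3, Arc and Dusp1, and other members are not given for that replicate.

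Many promoters of this class hold binding sites of CREB and of serum response factor, which carry the calcium signal to the gene. Windows of 250 bases before the start of transcription were read from RefSeq on GRCm38.p6 for 14 of the 19 genes, and Arc, Egr1, Egr3, Ier2 and Nptx2 were not matched. The CREB half-site TGACG, on either strand, was found in 14 of 24 windows of these genes and in 17.8% of the 32851 windows of all genes, and the CArG box of serum response factor in 4 windows, all of Egr2, against 1.47% of all windows. Windows of a gene with several starts overlap, the half-site and its reverse complement can overlap (as in Dusp1), and a match describes letters, not a bound site. The following 30 bases hold the half-site nearest the start, for the 4 matched genes that were higher at an unadjusted p under 0.05 or without overlap, and for Nr4a2, whose level in hTDP-43 replicates 2 and 3 was below both WT libraries. Capitals mark the half-site or its reverse complement and, in Egr2, also the CArG box.
Fos: ccccttccagttccgcccagTGACGtagga
Fosb: tttgtgcatggagttgcgggTGACGcaagc
Egr2: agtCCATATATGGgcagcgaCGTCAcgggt
Dusp1: aagctcggtagggcgggTGACGTCAccgcc
Nr4a2: ggccgggcTGACGgggccgcTGACGcgctt
These stretches lie for Fos at chr12:85473804-85473833 (plus strand, half-site from 66 bases before the start), for Fosb at chr7:19310096-19310125 (minus strand, half-site from 60 bases before the start), for Egr2 at chr10:67537794-67537823 (plus strand, half-site from 55 bases before the start), for Dusp1 at chr17:26508603-26508632 (minus strand, half-site from 140 bases before the start) and for Nr4a2 at chr2:57124105-57124134 (minus strand, half-site from 111 bases before the start).

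The transcription factor gene Fos had 18.9 and 8.51 CPM in WT and 59.5, 24.6 and 19.2 CPM in hTDP-43 (80 and 22 reads in WT and 442, 27 and 10 in hTDP-43). All 3 hTDP-43 libraries were above both WT libraries, narrowly so in replicate 3, and replicate 1 was highest. The log2 fold change was 1.402 ± 0.56 (unadjusted p = 0.0384, edgeR adjusted p = 1), and with the block 0.63 ± 0.37. Its paralog Fosb had 11.6 and 3.87 CPM in WT and 53.9, 13.7 and 11.5 CPM in hTDP-43, with a log2 fold change of 1.87 ± 0.76, and WT replicate 2 lay just above hTDP-43 replicate 3. Arc, whose protein removes AMPA receptors from active synapses, had 24.8 and 13.9 CPM in WT and 79.5, 31.0 and 30.8 CPM in hTDP-43 (1.33 ± 0.51, unadjusted p = 0.0329).

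Zinc finger factors of the Egr family differed in how they stood within the replicates. Egr3 had 51.8 and 44.1 CPM in WT and 88.6, 71.9 and 92.3 CPM in hTDP-43, and all 3 hTDP-43 libraries were at least 71.9 CPM against at most 51.8 in WT. Its log2 fold change was 0.81 ± 0.27 without the block (unadjusted p = 0.0181) and 0.73 ± 0.23 with it, and within replicates 2 and 3 it was 0.47 and 1.05. Egr2 had 5.68 and 5.03 CPM in WT and 18.0, 10.9 and 9.61 CPM in hTDP-43 (24 and 13 reads in WT and 134, 12 and 5 in hTDP-43), and its differences within the replicates were 0.87 and 0.86. For Egr1 they had opposite signs, -0.22 in replicate 2 and 0.59 in replicate 3. The library of hTDP-43 replicate 3 held 5 reads of Egr2, so that value has a wide counting error. The phosphatase gene Dusp1, which ends MAP kinase signalling, had 15.1 and 13.2 CPM in WT and 28.4, 17.3 and 19.2 CPM in hTDP-43 (0.66 ± 0.37, unadjusted p = 0.111).

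Replicate 1 of hTDP-43 was the highest library for several other members, though not for Nr4a2 and Jun. Npas4, the factor induced by calcium in neurons, had 19.6 and 22.8 CPM in WT and 59.4, 19.1 and 23.1 CPM in hTDP-43, so that replicate 1 was high and the other 4 libraries lay between 19.1 and 23.1 CPM. Nptx2, a secreted pentraxin that clusters AMPA receptors, had 57.9 and 41.8 CPM in WT and 177, 30.04 and 57.7 CPM in hTDP-43, and the neurotrophin gene Bdnf had 20.3 and 50.3 CPM in WT and 57.4, 17.3 and 32.7 CPM in hTDP-43. Nr4a1, an orphan nuclear receptor, had 40.0 and 30.6 CPM in WT and 96.7, 35.5 and 46.1 CPM in hTDP-43. Its paralog Nr4a2 had 12.8 and 22.8 CPM in WT and 16.3, 6.37 and 7.69 CPM in hTDP-43, with both WT libraries above replicates 2 and 3 of hTDP-43, and Jun had 46.1 and 48.7 CPM in WT and 46.3, 41.0 and 51.9 CPM in hTDP-43, within a narrow range in all 5 libraries. Junb (1.00 ± 0.51), Egr4 (1.04 ± 0.47) and Egr1 (0.43 ± 0.33) had higher means in hTDP-43 with overlapping groups, and Atf3 was not tested for low counts.

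**Figure D4:**
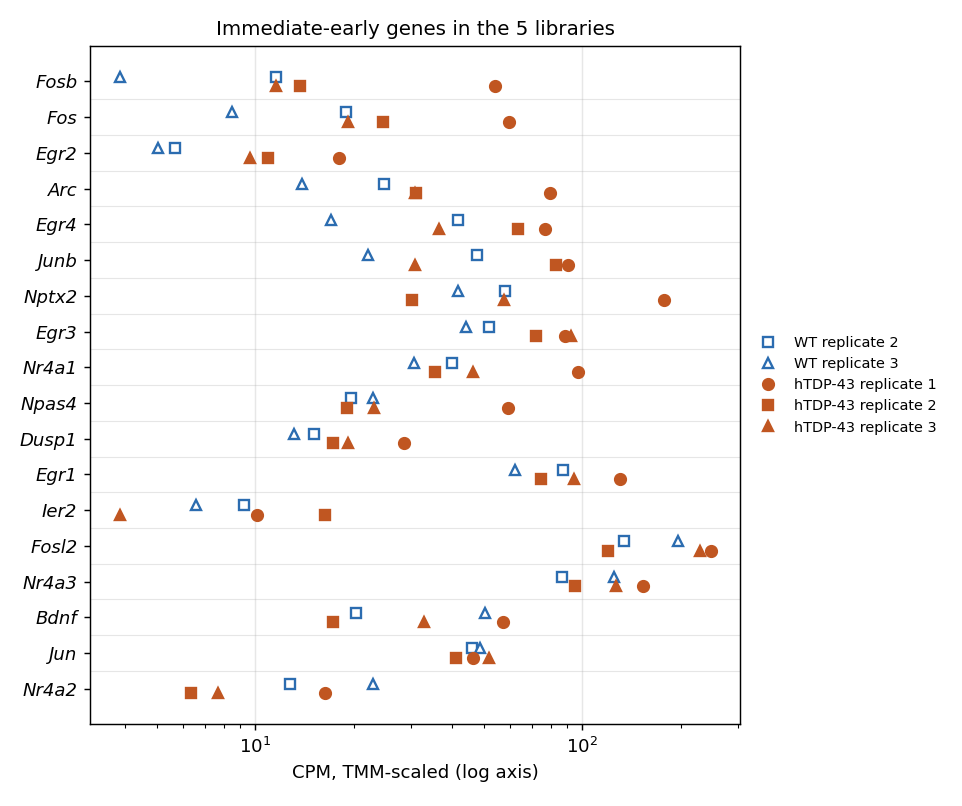
CPM (log axis, TMM-scaled) of the 18 immediate-early genes tested in each of the 5 libraries, ordered by log2 fold change. Open blue symbols are WT and filled orange symbols hTDP-43, with a circle, square or triangle for replicate 1, 2 or 3. The orange circle, hTDP-43 replicate 1, is the rightmost symbol in most rows, and for Fos, Egr2, Egr3, Arc and Dusp1 all orange symbols lie right of both blue ones.

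In the ribosome footprint libraries of the same groups and replicate numbers, 16 immediate-early genes were tested and 16 had a log2 fold change above 0, as did 4001 of the 8108 genes tested in both footprints and total mRNA. The median of the 16 was 0.65. This fit was without the block and included hTDP-43 replicate 1, which has no WT library of its number. Arc had 1.399 in footprints and 1.33 in total mRNA, Fos 1.298 and 1.402, Egr2 1.78 and 1.35, and Egr3 0.56 and 0.81. Footprint and total mRNA libraries of a number carry the same date in their labels and are not independent samples. In neurons with the disease mutant hTDP-43 A315T, which were compared with the same 2 WT libraries, the median of the list was 0.65, with Fos at 1.03, Arc at 1.17 and Egr3 at 0.73. Since the WT libraries are shared, nothing can be drawn from the likeness of these values.

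The genes with the smallest unadjusted p or the largest separated change were mostly at low levels, and none passed the threshold. Among those higher in hTDP-43, Ankrd33b had 14.0 and 10.8 CPM in WT and 32.6, 20.9 and 36.5 CPM in hTDP-43 (1.26 ± 0.37, unadjusted p = 0.00981), with all 3 hTDP-43 libraries above both WT libraries. Alkal2, a ligand of the receptor ALK, had 7.57 and 3.48 CPM in WT and 17.8, 15.5 and 13.5 CPM in hTDP-43 (1.49 ± 0.46). Dusp14, a dual-specificity phosphatase, had 21.3 and 12.8 CPM in WT and 37.0, 35.5 and 32.7 CPM in hTDP-43 (1.04 ± 0.33), with its hTDP-43 libraries close together. Cckbr, a receptor of cholecystokinin, had 18.0 and 3.09 CPM in WT and 25.9, 20.9 and 36.5 CPM in hTDP-43, with WT replicate 3 lowest, and Trim71, an RNA-binding ubiquitin ligase, had 4.73 and 7.74 CPM in WT and 10.5, 10.01 and 25.0 CPM in hTDP-43. Dcn, the matrix proteoglycan decorin and a marker of meningeal fibroblasts, had 0.709 and 0.387 CPM in WT and 3.23, 3.64 and 1.92 CPM in hTDP-43, which is 3 and 1 reads in WT and 24, 4 and 1 in hTDP-43. The markers of meningeal fibroblasts summed to 4.73 to 36.4 CPM in WT and 8.35 to 9.61 in hTDP-43, and Col1a1 had its highest value, 8.51 CPM, in WT replicate 3.

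Among genes lower in hTDP-43, Tspan33, a tetraspanin that escorts the protease ADAM10, had 74.3 and 115 CPM in WT and 35.6, 37.3 and 63.4 CPM in hTDP-43 (314 and 296 reads in WT and 264, 41 and 33 in hTDP-43). Its hTDP-43 libraries all lay below both WT libraries. The log2 fold change was -1.10 ± 0.35 (unadjusted p = 0.015), it was -0.98 in replicate 2 and -0.85 in replicate 3, and the adjusted p was 0.0692 with the block and 0.0313 with replicates 2 and 3 only and the block. Ero1lb, an oxidase of the endoplasmic reticulum that helps form disulfide bonds, had 14.9 and 17.0 CPM in WT and 7.27, 7.28 and 5.77 CPM in hTDP-43 (-1.19 ± 0.38). Dph5, an enzyme of diphthamide synthesis, had 10.4 and 40.6 CPM in WT and 6.46, 7.28 and 7.69 CPM in hTDP-43, with WT replicate 3 highest (-1.85 ± 0.60).

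Nup107, a scaffold protein of the nuclear pore, had 13.5 and 17.8 CPM in WT and 8.75, 6.37 and 5.77 CPM in hTDP-43 (-1.06 ± 0.40), and Il1rapl1, an organizer of synapses, had 11.1 and 27.5 CPM in WT and 8.48, 8.19 and 5.77 CPM in hTDP-43 (-1.28 ± 0.49). For both, all hTDP-43 libraries lay below both WT libraries at 5.77 to 27.5 CPM. Adat1, a tRNA deaminase (-1.39 ± 0.51), Minar2 (-1.28 ± 0.46), Pld5 (-1.26 ± 0.46) and Gm29666 (-1.77 ± 0.65) likewise had all hTDP-43 libraries below both WT libraries. Ttr, the thyroid hormone carrier made by choroid plexus, had 0.946 and 34.4 CPM in WT and 0.404, 0 and 3.84 CPM in hTDP-43 (4 and 89 reads in WT and 3, 0 and 2 in hTDP-43), so that its low p rests on WT replicate 3. The 6 choroid plexus markers summed to 352 to 571 CPM in WT and 101 to 438 in hTDP-43, nearly all of it Kl, which had 349 and 532 CPM in WT and 99.1, 397 and 417 CPM in hTDP-43. In footprints, Tspan33 had a log2 fold change of -0.55, Dph5 -0.77, Minar2 -1.67, Nup107 0.25 and Il1rapl1 0.40.

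Transcripts that TDP-43 binds or regulates lay on both sides of 0. Of 16 such genes on the list, 6 had a fitted log2 fold change above 0 and 10 below, none past the threshold, with a median of -0.04, -0.07 with the block and 0.17 without WT replicate 3. The tau gene Mapt had 1032 and 1203 CPM in WT and 1022, 1034 and 1063 CPM in hTDP-43 (-0.10 ± 0.26). The chaperone gene Dnajc5 had 581 and 573 CPM in WT and 615, 529 and 631 CPM in hTDP-43, and in neither gene did the groups separate. TDP-43 is known to guard the splicing of long introns. The 190 genes tested that span 500 kb or more had a median of -0.12, with 127 below 0. That median was -0.09 with the block, 0.38 without WT replicate 3 and -0.53 without WT replicate 2, so its sign depended on which WT library was used. Genes under 10 kb had medians of 0.03, 0.01, -0.13 and 0.37 in the same order. hnRNP and SR splicing factors, of which the hnRNPs are the protein family of TDP-43, had a median of 0.03 (-0.08 with the block) over 45 genes. In both replicates 20 of them were lower and 9 higher, against 26.2% and 27.2% of all genes tested.

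Lists of synaptic genes had medians slightly above 0, with no member past the threshold. Of 24 genes of synaptic vesicles and release, 20 had a log2 fold change above 0 (49.8% of all genes tested did). The median was 0.16, and 0.15 with the block. In both replicates 11 were higher and 1 lower, where 27.2% of all genes tested were higher and 26.2% lower in both. Bsn, the active zone scaffold bassoon, had 699 and 886 CPM in WT and 884, 821 and 1473 CPM in hTDP-43 (0.42 ± 0.34), with hTDP-43 replicate 3 highest and WT replicate 2 lowest. Vamp2, the vesicle SNARE, had 1297 and 810.1 CPM in WT and 1101, 1146 and 1046 CPM in hTDP-43 and Cplx2, a complexin, had 1166 and 1136 CPM in WT and 1121, 1169.8 and 1375 CPM in hTDP-43, both with overlapping groups. Of 29 genes of glutamate and GABA receptors and the postsynaptic density, 20 were above 0 (median 0.08, and -0.15 without WT replicate 2), among them Camk2b, a kinase of the postsynaptic density, with 1089 and 800.0 CPM in WT and 1136, 1132 and 1099.7 CPM in hTDP-43. All 3 hTDP-43 values of Camk2b exceeded both WT values by a small margin (0.25 ± 0.27). Grin2b, an NMDA receptor subunit, had 525 and 1673 CPM in WT and 1248, 661 and 1332 CPM in hTDP-43, with replicate 2 lowest in both genotypes. Camk2a, another kinase of excitatory synapses, had 747 and 484 CPM in WT and 742, 874 and 959 CPM in hTDP-43 (0.48 ± 0.30), with WT replicate 3 lowest. The 19 genes of the neuronal cytoskeleton had a median of -0.04, and the beta-tubulin gene Tubb3 had 1048 and 768 CPM in WT and 952, 904 and 704 CPM in hTDP-43.

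Lists of housekeeping and stress genes had no member past the threshold, and the medians of several depended on the WT library. The 80 ribosomal protein genes had a median of 0.01, which was -0.47 without WT replicate 3 and 0.78 without WT replicate 2. Rpl8 had 258 and 91.7 CPM in WT and 202, 270.4 and 96.1 CPM in hTDP-43 and Rps3 had 318 and 143 CPM in WT and 263, 349.6 and 165 CPM in hTDP-43, in both cases with the libraries of replicate 3 lowest in each genotype. The 31 proteasome genes had a median of -0.01, the 19 heat shock and chaperone genes 0.03, the 19 glycolysis genes 0.19 and the 22 genes of cholesterol synthesis 0.14. Without WT replicate 3 the median of the glycolysis genes turned to -0.08 and that of the heat shock and chaperone genes to -0.03. In the integrated stress response list, 10 of 18 genes were higher in both replicates and 2 lower, against 27.2% and 26.2% of all genes tested. The median of the list was 0.09, 0.26 with the block and -0.18 without WT replicate 3. The central factor of this response, Atf4, had 285 and 116 CPM in WT and 204, 289 and 167 CPM in hTDP-43. Replication-dependent histone genes had a median of -0.58 over 11 of 64 members. It was -0.08 without WT replicate 3. The lists of interferon-stimulated, cell cycle and collagen genes had 7, 11 and 17 members tested, of which none passed the threshold, and medians of 0.16, -0.07 and -0.19.

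**Figure D5:**
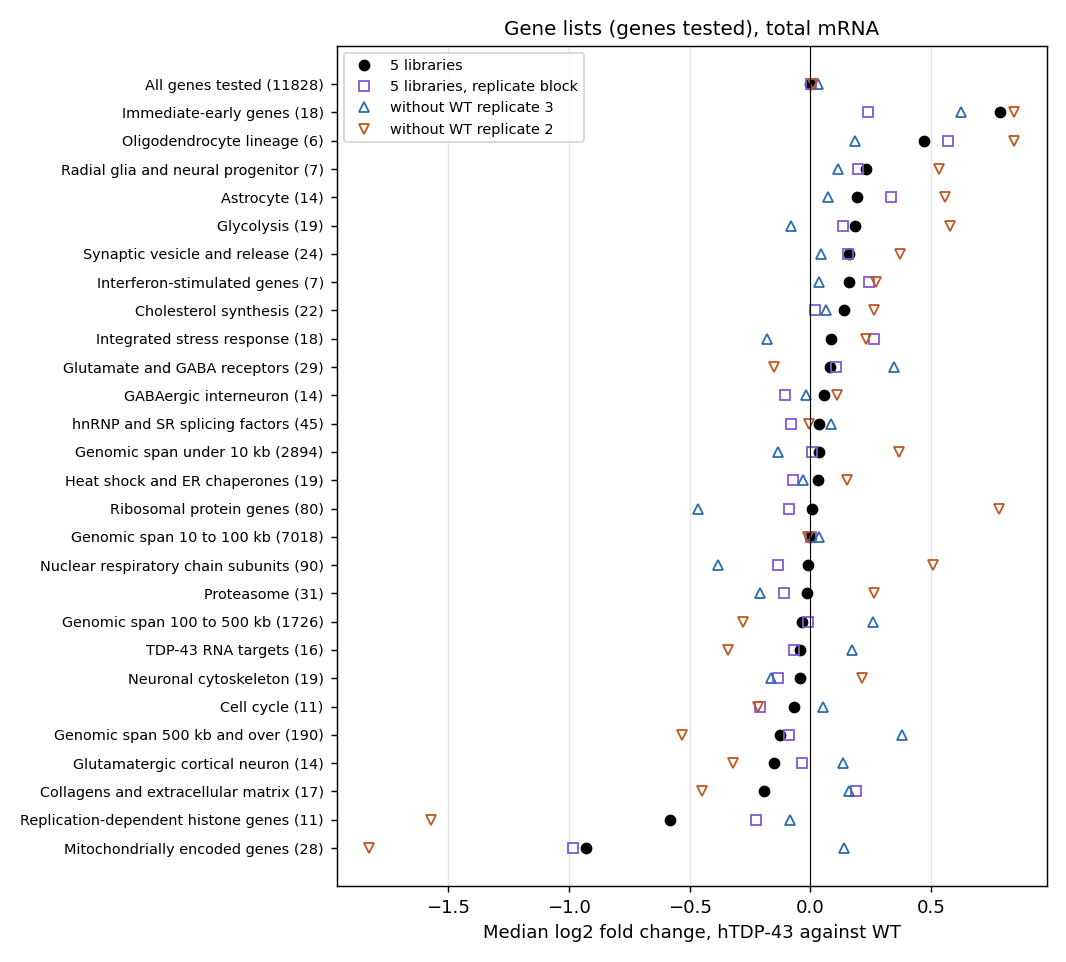
Median log2 fold change, hTDP-43 against WT, of each gene list with at least 6 genes tested (number in brackets) and of all genes tested. Filled circles use all 5 libraries, squares the replicate block, upward triangles all libraries but WT replicate 3 and downward triangles all but WT replicate 2. For immediate-early genes all 4 symbols lie right of 0, and for mitochondrially encoded genes, ribosomal protein genes and long genes the 2 triangles lie on opposite sides of 0.

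The study followed Camta1, Dennd4a, Mid1ip1 and Pth1r, chosen from genes altered in footprints and not in total mRNA. It first kept those whose translation changed with the A315T mutant alone. Of these it took genes with links to neurodegenerative disease or found in both cell types. Total mRNA without a called difference, and footprints without a called response to wild-type hTDP-43, were thus part of that choice. The study also listed Ttyh1 and Csf2, which it called with DESeq in neuron total mRNA. Wild-type hTDP-43 against the control, labelled GFP there, was among the comparisons named for both. All were chosen with libraries of this series, so their values here are no independent evidence. Camta1, a calmodulin-binding transcription factor, had 126 and 233 CPM in WT and 194, 139 and 179 CPM in hTDP-43 (-0.07 ± 0.33). Dennd4a, an exchange factor of Rab GTPases, had 47.5 and 104 CPM in WT and 69.4, 62.8 and 136 CPM in hTDP-43 (0.21 ± 0.46), and Mid1ip1, which acts on microtubules, had 45.9 and 48.7 CPM in WT and 37.6, 57.4 and 67.3 CPM in hTDP-43 (0.16 ± 0.33). None of these 3 separated the groups. Pth1r, the parathyroid hormone receptor, had 9.70 and 30.6 CPM in WT and 5.39, 10.9 and 21.1 CPM in hTDP-43, the membrane protein gene Ttyh1 had 273 and 7509 CPM in WT and 391, 319.5 and 3418 CPM in hTDP-43 and the cytokine gene Csf2 had 4.73 and 56.5 CPM in WT and 1.62, 6.37 and 44.2 CPM in hTDP-43. For these last 3 the libraries of replicate 3 were highest in both genotypes. Their log2 fold changes were -0.91 ± 0.69, -1.50 ± 1.32 and -1.26 ± 1.37, each with an edgeR adjusted p of 1, and in A315T neurons, against the same WT libraries, -1.37, -3.50 and -2.59.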

How the data were processed

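Poly(A)-selected, fragmented total mRNA of 2 WT and 3 hTDP-43 neuron cultures was analysed. Per the labels and the study's methods, the authors clipped adapters with cutadapt 1.8.1, removed reads that Bowtie2 placed on non-coding RNAs, aligned the rest with TopHat2 and counted uniquely mapped reads on exons with featureCounts 1.4.4. The deposited values are raw counts per gene (45513 genes, Ensembl release 80 of GRCm38), with no strand option in the file header. Symbols, which 44671 genes had, came from GENCODE M21, and promoter sequences from RefSeq. No pair of libraries had identical counts. The study names the controls as littermates, but nothing says whether replicates came from separate litters, so p-values measure the spread between these libraries.

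Counts were tested with edgeR 4.0.16 (R 4.3.3; TMM scaling, filterByExpr, quasi-likelihood test, Benjamini-Hochberg adjustment over all genes tested, threshold 0.05), which left 11828 genes. A standard error is |log2 fold change|/sqrt(F) of the quasi-likelihood F. The fitting was tested on simulated data. DESeq2 1.42.0 and limma 3.58.1 were alternatives, with other scalings and filters, the replicate number as a block and each library left out. Libraries of the same number carry the same date in the labels, which is where the pairing comes from. Deviations from group means correlated at 0.756 and 0.803 (3483 genes) for the same number and from -0.803 to 0.233 for different numbers. With 2 WT libraries, each WT deviation is the other with its sign turned. The values for different numbers thus partly mirror those for the same number by arithmetic and are no separate support for the pairing. Named genes were Tardbp and Prnp, genes past the threshold with or without the block, the 8 protein-coding genes with the smallest p in each direction, the 6 with the largest change in each direction among those without overlap and at least 10 CPM, the 3 highest members of each list, genes over 1% of reads and those the study chose. Other genes named, and all promoter stretches, were chosen after values were seen. Members and lists were chosen with earlier results of these data known. The 12 MN1 libraries were not used here, and 1 gene that the rule names is not reported here.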

Additional observations from a re-analysis of the deposited data

How the results depend on the processing

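The count of 0 genes past the threshold moved with 3 settings. It was 20 with the replicate block, 26 with replicates 2 and 3 only and the block, and 50 without the filter on low counts (2 higher, 48 lower, of which 5 are genes that the filter leaves out). In the fit without the filter, as in the blocked fits, the spread of every gene was taken from the trend over all genes. The cause of its calls was not tested. It stayed 0 with DESeq2 with or without the block, limma-voom, RLE or upper quartile scaling, scaling to assigned reads, the stricter filter, protein-coding genes only, genes over 1% of reads left out, all 8 neuron total mRNA libraries in 1 fit, replicates 2 and 3 only, and each library left out in turn. Pairing by replicate number (the block) changed the call of those 20 genes and of no other gene named here on 5 libraries. With libraries left out in turn, the log2 fold change ranged from -0.64 to 0.17 for Tardbp and from -0.11 to 0.98 for Prnp. The direction turned, by more than the standard error, for Camta1 from -0.47 to 0.45, Car9 from -3.70 to 4.07, Cdr1 from -2.67 to 0.63, Csf2 from -3.35 to 1.27, Dennd4a from -0.30 to 0.87, Dlk1 from -4.80 to 0.53, Fut9 from -1.82 to 0.39, Gm24245 from -0.55 to 1.71, Hes7 from -3.35 to 2.19, Ncbp3 from -3.34 to 0.50, Pth1r from -1.71 to 0.029, Ttyh1 from -3.46 to 2.33, Wtap from -0.20 to 1.51, mt-Nd5 from -1.46 to 0.32, mt-Nd6 from -1.32 to 0.14, mt-Rnr1 from -1.74 to 0.20, mt-Rnr2 from -1.82 to 0.26 and mt-Tc from -4.77 to 1.68. Leaving out WT replicate 3 gave most of these turns, while, among them, Dlk1, Dennd4a and Gm24245 turned without WT replicate 2 and Wtap without hTDP-43 replicate 2. Of the other values recomputed for named genes, 938 kept direction and side of the threshold and 51 passed it. Among list medians, 103 moved by less than the spread between replicates and 17 by more. Scaling to assigned reads gave 418 higher and 399 lower genes without overlap. Depth limits the comparison most in hTDP-43 replicates 2 and 3, where 3 reads stand for 3.04 and 5.00 CPM.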

Other observations

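A group of genes differed between the libraries of replicates 2 and 3, in both WT and hTDP-43, by a larger factor than the genes described above differed with the transgene. The A315T library of replicate 3, with 3.24% of its reads on Lars2, did not share the composition of WT 3 and hTDP-43 3. Its values for these genes are not given here, so the differences describe the WT and hTDP-43 libraries and not every library of that number. Sspo, the gene of SCO-spondin, a secreted protein of the subcommissural organ, had 19.2 and 4817 CPM in WT and 15.4, 13.7 and 3368 CPM in hTDP-43. Rfc1, the large subunit of the clamp loader of DNA replication, had 24.8 and 2793 CPM in WT and 36.0, 18.2 and 2249 CPM in hTDP-43, and Ndufs7, a nuclear subunit of complex I, had 136 and 8607 CPM in WT and 118, 128 and 4335 CPM in hTDP-43. In each of these the 2 libraries of replicate 3 were high and the other 3 low. Lhx9, a LIM homeobox gene, had 3.31 and 433 CPM in WT and 0.808, 0.910 and 256 CPM in hTDP-43, and Fgg, the fibrinogen gamma chain made by liver, had 7.09 and 674 CPM in WT and 33.3, 3.64 and 367 CPM in hTDP-43.

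Other groups were lower in replicate 3. Ribosomal protein genes were -1.26 in WT and -0.92 in hTDP-43 (median log2 difference of replicate 3 from replicate 2), and nuclear genes of the respiratory chain -0.90 and -0.76. Rpl41 had 209 and 46.8 CPM in WT and 162, 168 and 38.4 CPM in hTDP-43 and Uqcr10, a subunit of complex III, had 72.6 and 15.9 CPM in WT and 50.8, 55.5 and 11.5 CPM in hTDP-43. Genes that span 500 kb or more were higher, at 0.92 and 0.60. Stag3, a cohesin subunit of meiosis, had 92.2 and 1.55 CPM in WT and 9.97, 117 and 3.84 CPM in hTDP-43, with replicate 2 high in both genotypes. These genes were chosen after their values were seen, the values describe the libraries, and their cause was not tested.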
